A study of Mus musculus with 36 samples.

Results

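The growth hormone and insulin-like growth factor (IGF) axis was followed through 9 genes in the tibia of mice with Hutchinson-Gilford progeria syndrome (HGPS). These were the ligand gene Igf1, the receptor genes Igf1r and Ghr, and the binding protein genes Igfbp2, Igfbp3, Igfbp4, Igfbp5, Igfbp6 and Igfbp7. All 9 were found by gene symbol among the 56246 genes of the table, and 8 of them passed the filter on low values that was set for testing, a mean of at least 0.5 TPM, a length-corrected share of a library's transcripts, over all libraries. Igfbp2 fell under it.

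Growth hormone acts through its receptor, GHR, and the kinase JAK2, which activates STAT5 factors, and one of the main STAT5 target genes is Igf1. IGF-1 made in bone and IGF-1 from the circulation bind the receptor tyrosine kinase IGF1R on osteoblasts, osteocytes and growth plate cells, and signal through IRS adaptors, PI3K and AKT to mTOR and to FOXO factors. Most IGF in tissue is held by IGF binding proteins, which can keep it from the receptor or store it in matrix, and proteases such as PAPP-A release it again.

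Bulk poly(A) RNA was sequenced from 36 tibiae of mice aged 6 months, 12 in each of 3 groups, with 6 males and 6 females in each. Wild-type mice (WT) were labelled as not treated. The other 24 carried a homozygous human LMNA transgene, on a bacterial artificial chromosome, with the G608G progeria mutation (LMNA G608G/G608G, here LMNA G/G) on top of their own mouse Lmna genes, and were given a single retro-orbital injection at postnatal day 14. In the saline group it held saline, and in the ABE group it held a pair of AAV9 vectors that encode the parts of an adenine base editor and its guide RNA, which rewrites the mutant base in the cells it reaches. No uninjected LMNA G/G mice and no injected WT mice were in the series, and WT mice have a number series of their own, so genotype, injection and any difference in handling between WT and LMNA G/G mice cannot be told apart. The saline and ABE groups share genotype and age and differ by what was injected. The bone ends and the marrow were taken off beforehand, which the paper describes as leaving mostly cortical bone. Muscle and blood cell mRNA was still measured in the libraries, as given below. A few mice, 2 of the ABE group and 1 of the saline group, have the letters WT within their titles and LMNA G608G/G608G as their genotype label. The transgene is human and was not analysed here, so genotypes were not checked. The summed osteocyte genes of every LMNA G/G mouse (187 scaled TPM or more) lay above those of every WT mouse (61.1 or less). This sum separates the groups as labelled, and it cannot tell genotype from injection or handling.

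Values are given as scaled TPM, that is, TPM divided by a factor for each library, the median ratio of its values to the average library over 14219 genes. TPM is corrected for gene length, so levels of different genes can be set side by side. The libraries held between 48064068 and 116206662 reads on genes. Genes of the osteoblast list were high in every group, with medians of their summed scaled TPM of 1464, 1516 and 1472 in WT, saline and ABE, whereas osteocyte genes had medians of 33.0, 385 and 286, so that WT tibiae held little of the defining osteocyte mRNA. Genes of skeletal muscle, a tissue attached to the bone, had a median sum of 1184 in WT (235 to 3646), 2443 in saline (381 to 9365) and 7388 in ABE (1259 to 15107). Of the 16 muscle genes, 12 rose in saline against WT, 16 in ABE against WT and 14 in ABE against saline. Neutrophil genes had median sums of 1522, 2620 and 1628 in WT, saline and ABE. Blood cell genes moved as well, with 8 of 10 neutrophil genes and 7 of 8 tested erythroid genes lower in ABE than in saline. In bulk tissue, fewer cells of a type and less RNA per cell cannot be told apart. Their part in the differences below was not tested. For each tested member, the value with the muscle list, or with the neutrophil, B cell and erythroid lists, as covariates is given where it changed the call. For the other pathway genes only numbers of calls with these covariates are given, and many of the calls named below were lost with them.

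The genes lie on 6 chromosomes (GENCODE vM21 on GRCm38). Igf1 spans 87858265 to 87937042 on chromosome 10 and Igf1r 67952827 to 68233668 on chromosome 7, both on the plus strand, and Ghr spans 3317760 to 3583492 on the minus strand of chromosome 15. Igfbp2 (72824503 to 72852474, plus strand) and Igfbp5 (72857932 to 72874884, minus strand) are neighbors on chromosome 1 that end 5457 bases from each other. Igfbp3 (7206086 to 7213923, minus strand) lies on chromosome 11, next to Igfbp1, with 3539 bases between them, and Igfbp4 (99041244 to 99054392, plus strand) lies on the same chromosome. Igfbp6 spans 102144362 to 102149511 on the plus strand of chromosome 15, and Igfbp7 spans 77349240 to 77408041 on the minus strand of chromosome 5. The binding protein genes are related in sequence. Transcripts of each member were set against those of the other members and of a few related genes. The longest identical run ranged from 18 bases for Igfbp6 to 43 for Igf1r, the latter with the insulin receptor gene Insr. This is shorter than a read of these libraries. An exon of Igfbp7 overlaps an exon of Polr2b on the opposite strand, and the study's libraries were strand-specific. No other member overlapped an exon of another gene.

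RefSeq promoter windows on GRCm38.p6 were found for all 9 members, 11 windows in all. In the 250 bases before the RefSeq transcription start, 5 short motifs were searched on both strands. They were the TATA box TATAAA, the GC box GGGCGG bound by SP factors, the STAT5 motif TTCNNNGAA, the FOXO motif TGTTTAC and the E-box CACGTG, and they were held by 12.4%, 32.7%, 7.02%, 3.17% and 6.02% of 32851 such windows over all genes. None of the 11 windows held the STAT5 or the FOXO letters, and no matches overlapped in the windows printed. The 4 windows printed here belong to the pair of members that differed between the ABE and saline groups, Igfbp4 and Igfbp6, and to Igf1r and Igfbp7. Igf1r differed from WT in both LMNA G/G groups, and Igfbp7 in the ABE group only. Among the windows not printed, those of Igf1, Igfbp3 and Igfbp5 held none of the 5 motifs. Counted from the start, the TATA letters are at -28 in Igfbp4, in the printed direction, and at -148 in Igfbp6, on the opposite strand. Igf1r holds 2 GC boxes, and Igfbp7 holds 4. A match describes the letters in the window and nothing about binding. Motif letters are in capitals, and each run is 5′ to 3′ on the strand of its gene.
Igfbp4 (chr11:99040994-99041243, plus strand): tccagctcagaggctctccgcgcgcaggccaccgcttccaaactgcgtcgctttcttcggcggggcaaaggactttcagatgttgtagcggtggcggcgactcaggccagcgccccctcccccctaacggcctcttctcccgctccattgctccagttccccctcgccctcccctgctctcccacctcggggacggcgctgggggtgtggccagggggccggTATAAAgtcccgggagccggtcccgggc
Igfbp6 (chr15:102143936-102144185, plus strand): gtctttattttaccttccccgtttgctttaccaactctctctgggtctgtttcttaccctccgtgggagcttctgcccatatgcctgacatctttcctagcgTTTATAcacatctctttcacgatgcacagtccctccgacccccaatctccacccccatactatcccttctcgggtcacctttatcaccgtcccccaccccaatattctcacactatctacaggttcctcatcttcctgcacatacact
Igf1r (chr7:67952007-67952256, plus strand): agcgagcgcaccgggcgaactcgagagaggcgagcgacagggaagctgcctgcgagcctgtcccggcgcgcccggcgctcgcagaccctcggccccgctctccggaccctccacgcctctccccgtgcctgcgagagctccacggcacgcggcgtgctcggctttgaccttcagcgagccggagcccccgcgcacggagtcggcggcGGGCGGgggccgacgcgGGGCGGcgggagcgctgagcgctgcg
Igfbp7 (chr5:77408046-77408295, minus strand): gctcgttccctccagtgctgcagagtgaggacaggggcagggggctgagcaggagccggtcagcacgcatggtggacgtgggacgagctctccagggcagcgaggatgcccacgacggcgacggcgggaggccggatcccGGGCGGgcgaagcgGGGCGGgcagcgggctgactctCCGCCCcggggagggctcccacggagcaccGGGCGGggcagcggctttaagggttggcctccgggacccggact

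Igf1, the ligand gene, was near 1 scaled TPM in every group and did not pass the test in any comparison. It ranged from 0.628 to 1.54 in WT (median 1.03), from 0.453 to 1.23 in saline (median 0.989) and from 0.589 to 1.41 in ABE (median 1.04), and the groups overlapped. Values rested on 1009 to 4410 reads a library. Tests were made with limma on log2(scaled TPM + 0.5), with sex as a covariate, over 16123 genes, and a gene was called at a Benjamini-Hochberg adjusted p under 0.05. Fold changes on this scale understate the change of low genes. Saline differed from WT by -0.12 on the log2 scale (95% interval -0.33 to 0.08, adjusted p = 0.315), ABE from WT by -0.05 (-0.26 to 0.16, adjusted p = 0.665) and ABE from saline by 0.07 (-0.14 to 0.28, adjusted p = 0.582).

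Other ligand genes were low. Igf2, a growth factor of fetal tissue, had 0.0382 ± 0.0130 scaled TPM (SD, n = 12) in WT, 0.125 ± 0.0394 in saline and 0.187 ± 0.141 in ABE, all below the filter. Its lowest saline mouse, at 0.0636, lay above the highest WT mouse, at 0.0570. The share of all genes that separate these groups was not counted. With no filter on low values Igf2 was called higher in saline and in ABE than in WT (limma, adjusted p = 0.0117 and 8.5e-05), and ABE and saline differed by 0.12 on the log2 scale (adjusted p = 0.230). In that fit 30.3%, 44.3% and 23.4% of 43628 genes were called in these comparisons. Igfals, whose product holds IGF and IGFBP3 in a complex in serum and which is made chiefly in liver, stayed below 0.318 scaled TPM in each mouse. Gh itself had at most 38 reads in a library.

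Igf1r, the receptor kinase, was lower in both LMNA G/G groups. It ranged from 2.63 to 3.74 scaled TPM in WT (median 3.06), from 2.24 to 3.16 in saline (median 2.71) and from 2.26 to 3.17 in ABE (median 2.49). As many as 9 ABE mice, and 4 saline mice, lay below the lowest WT mouse. The level was 0.895-fold in saline against WT (log2 -0.16 ± 0.05 SE, adjusted p = 0.0075) and 0.848-fold in ABE against WT (log2 -0.24 ± 0.05, adjusted p = 8.1e-05). With the muscle list as a covariate neither remained past the threshold (log2 -0.09, adjusted p = 0.12, and -0.07, adjusted p = 0.36), and in females alone saline and WT differed by -0.04 (adjusted p = 0.737), on TPM as deposited by -0.32 (adjusted p = 0.057). ABE and saline differed by -0.08 (95% interval -0.18 to 0.02, adjusted p = 0.198), a difference that was called with the GC and length trend removed (-0.13, adjusted p = 0.028) and on TPM as deposited (-0.39, adjusted p = 0.016).

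Ghr, which encodes the growth hormone receptor and, in mice, also the soluble growth hormone binding protein, stood higher in both LMNA G/G groups. Its levels were 0.731 to 2.99 scaled TPM in WT (median 1.64), 1.64 to 4.02 in saline (median 2.43) and 2.11 to 5.07 in ABE (median 3.06). All 12 saline and all 12 ABE mice lay above the WT median, and 6 ABE mice above the highest WT mouse. Ghr rose 1.29-fold in saline against WT (log2 0.36 ± 0.14 SE, adjusted p = 0.027) and 1.59-fold in ABE against WT (log2 0.67 ± 0.14, adjusted p = 6.8e-05), and ABE and saline differed by 0.31 (95% interval 0.03 to 0.59, adjusted p = 0.064). With the muscle list as a covariate these values were 0.09 (adjusted p = 0.49), 0.05 (adjusted p = 0.78) and -0.04 (adjusted p = 0.86). With the blood cell lists both calls against WT were lost as well (0.33, adjusted p = 0.13, and 0.32, adjusted p = 0.089), and so they were on TPM as deposited (0.24, adjusted p = 0.24, and 0.21, adjusted p = 0.23). ABE against saline, in turn, passed the threshold in females alone (0.56, adjusted p = 0.0277), with only these 2 groups in the fit (adjusted p = 0.049), with array weights (0.36, adjusted p = 0.014) and without any of 5 libraries, WT male replicate 11, saline male replicate 11, ABE male replicate 10, ABE female replicate 2 or ABE female replicate 3. In saline against WT the call was also lost in females alone, as given below, on rescaling over longer genes (0.21, adjusted p = 0.17) and without any of 3 libraries, WT male replicate 8, WT male replicate 11 or saline male replicate 11, where the adjusted p reached 0.0633.

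**Figure D1:**
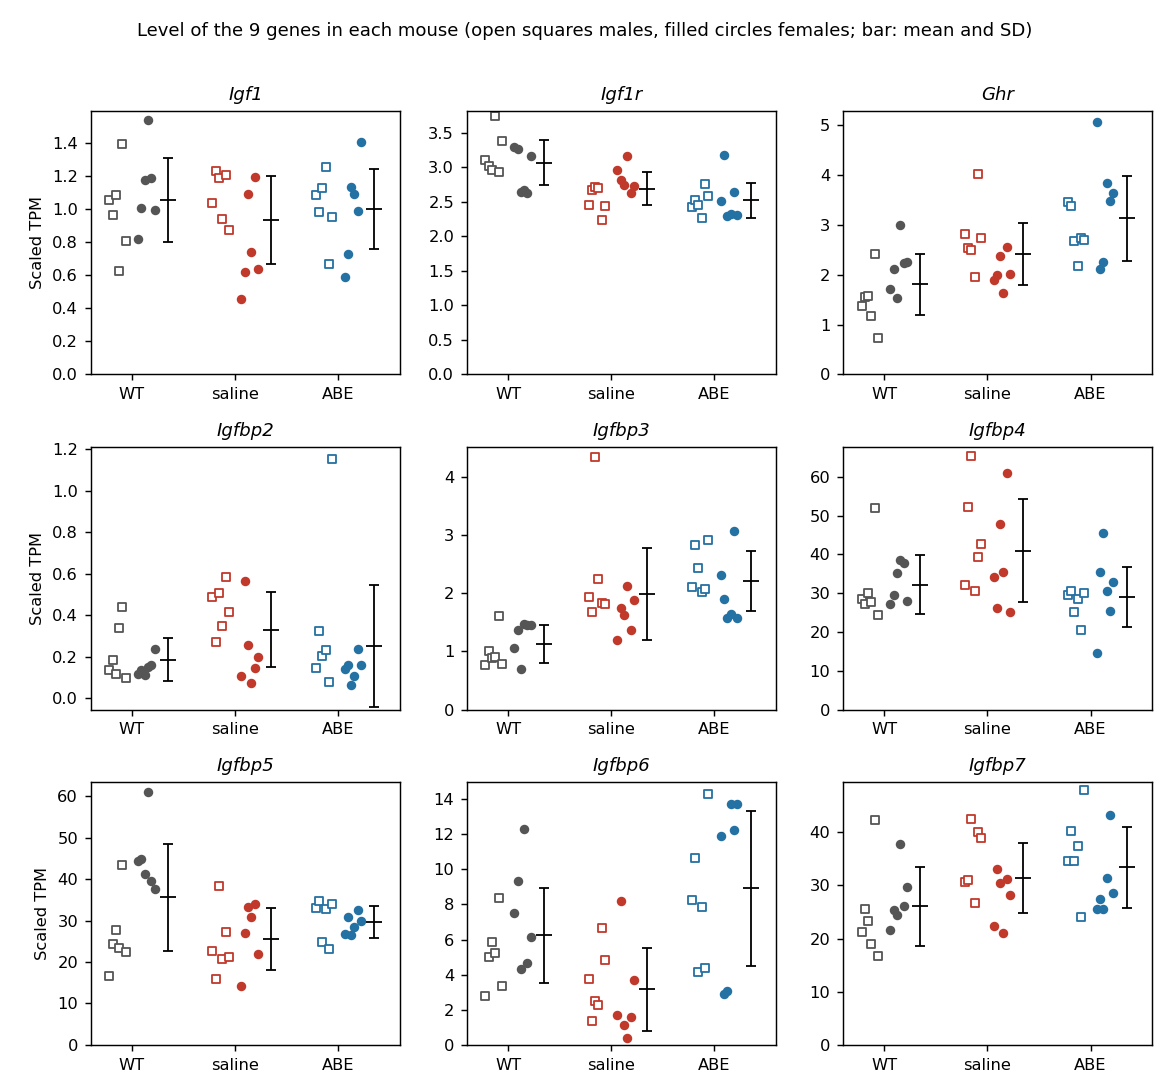
Scaled TPM of the 9 members in each of 36 mice, by group on the horizontal axis. Open squares are males, filled circles females, and the bar beside them gives the mean and SD of 12 mice. Igf1 lies near 1 in all groups, Igfbp3 is higher in both LMNA G/G groups than in WT, and Igfbp6 is lowest in saline.

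Among the binding protein genes, Igfbp3, whose product carries most IGF in serum, showed the rise in LMNA G/G mice with the least overlap. It ranged from 0.705 to 1.60 scaled TPM in WT (median 1.03), from 1.20 to 4.33 in saline (median 1.82) and from 1.57 to 3.06 in ABE (median 2.09). In both LMNA G/G groups 10 of 12 mice lay above the highest WT mouse. Igfbp3 rose 1.51-fold in saline (log2 0.59 ± 0.13 SE, adjusted p = 2.1e-04) and 1.67-fold in ABE (log2 0.74 ± 0.13, adjusted p = 4.5e-06) against WT, and remained called with the muscle list as a covariate (0.53 and 0.60). With the blood cell lists as covariates the values were 0.31 (adjusted p = 0.21) and 0.40 (adjusted p = 0.064), and in females alone saline differed from WT by 0.31 (adjusted p = 0.172). On TPM as deposited ABE against WT was 0.33 (adjusted p = 0.053). Igfbp3 varied across mice with endothelial genes, which had median sums of 30.9, 33.1 and 38.0 in WT, saline and ABE, and with osteocyte genes (r = 0.67, rho = 0.73), whose median sums of 33.0, 385 and 286 moved in the same comparisons, with 9 of 9 called higher in both LMNA G/G groups. Their part was not tested. ABE and saline differed by 0.15 (95% interval -0.11 to 0.41, adjusted p = 0.336).

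Igfbp5, which encodes a binding protein stored in bone matrix, fell in saline. Its levels were 16.7 to 61.1 scaled TPM in WT (median 38.6), 14.3 to 38.3 in saline (median 24.8) and 23.1 to 34.7 in ABE (median 30.3). No saline and no ABE mouse lay above the WT median. The fall in saline against WT was 0.741-fold (log2 -0.43 ± 0.16 SE, adjusted p = 0.021), and with the blood cell lists as covariates it was -0.10 (adjusted p = 0.78), with quantile normalization -0.33 (adjusted p = 0.086). ABE differed from WT by -0.18 (95% interval -0.50 to 0.14, adjusted p = 0.323) and from saline by 0.26 (-0.06 to 0.58, adjusted p = 0.180). The former was called lower in females alone (-0.60, adjusted p = 0.0104; in males 0.25, adjusted p = 0.328), on TPM as deposited (-0.75, adjusted p = 0.0048) and on rescaling over longer genes (-0.40, adjusted p = 0.033). The SD was 12.8 in WT and 3.84 in ABE, and the WT spread followed sex, as given below.

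Igfbp4, which encodes a binding protein that inhibits IGF action and is cut by PAPP-A, fell in ABE against saline. It ranged from 24.5 to 52.1 scaled TPM in WT (median 29.0), from 25.1 to 65.3 in saline (median 37.4) and from 14.5 to 45.5 in ABE (median 29.8). All ABE mice but 1 were at or below the saline median, and 2 lay below the lowest saline mouse. ABE against saline was 0.720-fold (log2 -0.47 ± 0.16 SE, adjusted p = 0.015), and with the muscle list as a covariate the value was -0.40 (adjusted p = 0.18), in females alone -0.32 (adjusted p = 0.336). Osteoclast genes, which varied with Igfbp4 across mice, had median sums of 172, 407 and 225 in WT, saline and ABE, and their part was not tested. Saline differed from WT by 0.31 (95% interval -0.01 to 0.64, adjusted p = 0.0998) and ABE from WT by -0.16 (-0.49 to 0.16, adjusted p = 0.368; on TPM as deposited -0.73, adjusted p = 0.012). The saline value passed the threshold without WT male replicate 10 (adjusted p = 0.042) and under 4 other settings, which included quantile normalization (0.44, adjusted p = 0.034) and the blood cell lists as covariates (0.77, adjusted p = 0.010).

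Igfbp6, whose product prefers IGF-2, was lowest in saline. It ranged from 2.77 to 12.3 scaled TPM in WT (median 5.55), from 0.372 to 8.21 in saline (median 2.39) and from 2.88 to 14.3 in ABE (median 9.47). As many as 7 saline mice lay below the lowest WT mouse, and 7 ABE mice above the highest saline mouse. Igfbp6 fell to 0.482-fold in saline against WT (log2 -1.05 ± 0.32 SE, adjusted p = 0.0069) and was 2.74-fold higher in ABE than in saline (log2 1.45 ± 0.32, adjusted p = 0.0012), while ABE differed from WT by 0.40 (95% interval -0.26 to 1.06, adjusted p = 0.271). Across mice, after removal of group and sex means, the muscle list moved with it (r = 0.81). In saline against WT 12 of 16 muscle genes rose and Igfbp6 fell. Used as a covariate, that list gave -1.73 in saline against WT (adjusted p = 5.9e-08), 0.60 in ABE against saline (adjusted p = 0.097) and -1.13 in ABE against WT (adjusted p = 0.0019), the last with the opposite sign. With the blood cell lists as covariates the values were -0.99 (adjusted p = 0.080), 0.98 (adjusted p = 0.056) and -0.01 (adjusted p = 0.99) in the same order. In males alone saline and WT differed by -0.52 (adjusted p = 0.216). Genes of periosteal, tendon and synovial fibroblasts had median sums of 93.6, 36.1 and 74.5 in WT, saline and ABE. Of these 10 genes, 2 rose and 4 fell in saline against WT, and 8 rose in ABE against saline. The part of muscle or of fibroblasts in the Igfbp6 differences was not tested.

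Igfbp7, which encodes a low-affinity member of the family that is abundant in vessels, was 16.7 to 42.2 scaled TPM in WT (median 24.9), 21.1 to 42.4 in saline (median 30.8) and 24.1 to 47.9 in ABE (median 33.0). As many as 11 of 12 ABE mice and 10 of 12 saline mice lay above the WT median, and the groups overlapped. It rose 1.29-fold in ABE against WT (log2 0.36 ± 0.14 SE, adjusted p = 0.017), and not past the threshold in saline against WT (0.28, 95% interval 0.00 to 0.55, adjusted p = 0.084) or in ABE against saline (0.09, -0.19 to 0.36, adjusted p = 0.624). Saline against WT passed the threshold in males alone (0.54, adjusted p = 0.033), with quantile normalization (0.38, adjusted p = 0.025), with array weights (0.31, adjusted p = 0.017) and without WT female replicate 6, WT male replicate 10 or saline female replicate 4. The rise in ABE was not kept with the muscle list (-0.04, adjusted p = 0.89) or the blood cell lists (0.32, adjusted p = 0.17) as covariates, nor on TPM as deposited, where all genes shifted together (median log2 -0.42) and Igfbp7 stood at -0.21 (adjusted p = 0.39). It was not kept on rescaling over longer genes (0.14, adjusted p = 0.39) or in females alone (0.14, adjusted p = 0.494) either.

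Igfbp2, which encodes a binding protein that is abundant in serum, was the lowest member, with 29 to 480 reads a library. Its scaled TPM were 0.0960 to 0.439 in WT (median 0.143), 0.0761 to 0.584 in saline (median 0.310) and 0.0662 to 1.15 in ABE (median 0.162), the highest in ABE male replicate 12. Of the saline mice, 10 of 12 lay above the WT median. With no filter, limma gave 0.26 in saline against WT (adjusted p = 0.0999), 0.08 in ABE against WT (adjusted p = 0.629) and -0.18 in ABE against saline (adjusted p = 0.319), where 30.3%, 44.3% and 23.4% of 43628 genes were called. On recovered reads (limma-voom, genes with at least 10 reads on average, added after the data were seen), where the constant that is added is small beside these read numbers, saline against WT was 0.79 ± 0.33 SE (1.73-fold, adjusted p = 0.041), in a fit that called 56.1% of genes.

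Of the 8 tested members, 5 were called in saline against WT, 2 higher (Ghr, Igfbp3) and 3 lower (Igf1r, Igfbp5, Igfbp6). Over all genes tested 52.7% were called, 25.8% higher and 26.9% lower, so the members' share is near that of all genes. In ABE against WT 4 of 8 were called, 3 higher (Ghr, Igfbp3, Igfbp7) and 1 lower (Igf1r), beside 70.5% of all genes, 34.7% higher and 35.8% lower. In ABE against saline 2 of 8 were called, Igfbp6 higher and Igfbp4 lower, beside 48.4% of all genes, 24.8% higher and 23.6% lower. The median log2 fold change of the 8 members was 0.08, 0.16 and 0.12 in these comparisons, beside 0.00, -0.02 and 0.00 over all genes. The comparisons with WT share the WT mice, and both comparisons of saline share the saline mice. Without ABE replicate 1, a female whose scaling factor (0.216) was the lowest of all libraries, the same members were called.

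**Figure D2:**
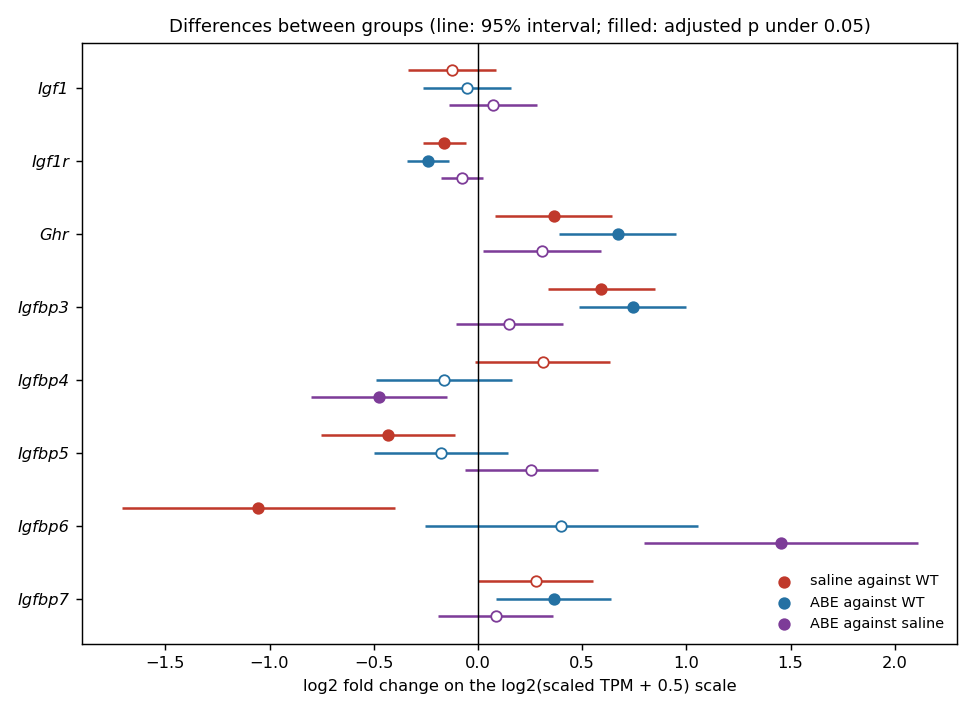
Difference between groups for the 8 tested members, as log2 fold change on the log2(scaled TPM + 0.5) scale (horizontal axis). Lines are 95% intervals, and filled points have an adjusted p under 0.05. Igfbp6 lies at -1.05 in saline against WT and at 1.45 in ABE against saline, and the 3 intervals of Igf1 cross 0.

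The make-up of the binding protein mRNA was also measured as the share of each gene in the summed TPM of Igfbp2 to Igfbp7 within a library, which no scaling between libraries enters. The sum itself was 101 ± 27.1 scaled TPM (SD, n = 12) in WT, 103 ± 22.6 in saline and 104 ± 15.8 in ABE. Igfbp4, Igfbp5 and Igfbp7 together made up most of it in each group. Igfbp5 led in WT, above Igfbp4 in 6 of 12 mice, and these neighbors in the order cannot be separated. Igfbp4 led in saline, above Igfbp7 in 9 of 12 mice, and Igfbp7 led in ABE, above Igfbp5 in 8 of 12 mice. Igfbp4 held 25.4% to 40.7% in WT (mean 32.4%), 27.0% to 51.0% in saline (mean 39.3%) and up to 44.6% in ABE (mean 28.1%). Igfbp5 held 34.4% ± 5.86, 24.7% ± 4.96 and 28.9% ± 2.28. The ratio of Igfbp4 to Igfbp5 was 0.612 to 1.71 in WT (median 1.02), 0.966 to 3.27 in saline (median 1.46) and 0.546 to 1.72 in ABE (median 0.895). Igfbp6 held 6.02% ± 1.53, 3.16% ± 2.38 and 8.51% ± 3.97, and Igfbp3 1.11% ± 0.191, 1.92% ± 0.537 and 2.15% ± 0.505. The sum was 97.0 ± 17.1 times the Igf1 level in WT, 116 ± 26.0 times in saline and 107 ± 22.4 times in ABE, ranges that overlapped. These shares are a description with no test.

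**Figure D3:**
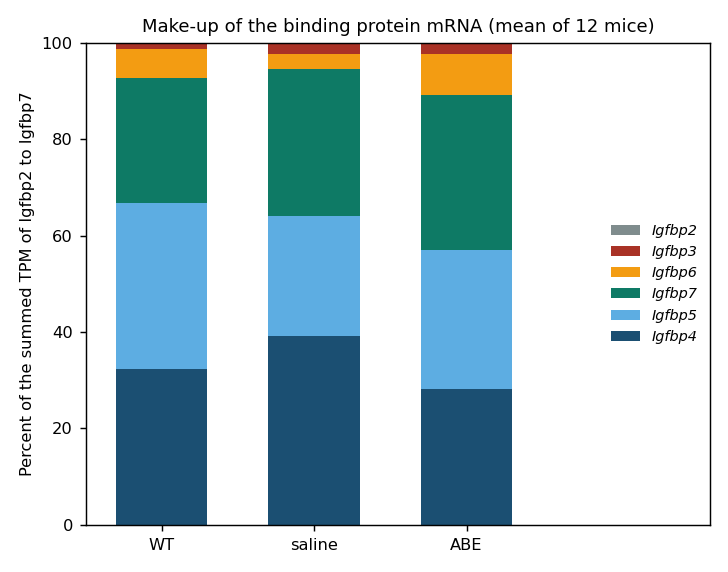
Mean share of each binding protein gene in the summed TPM of Igfbp2 to Igfbp7, in percent, for 12 mice a group. The Igfbp4 share is largest in saline (39.3%), and the Igfbp6 share is smallest there (3.16%).

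No member differed by sex past the threshold. Averaged over the groups, 0 of 8 members were called between females and males, beside 0.571% of all genes (limma), and 1 had an unadjusted p under 0.05, Igfbp5, higher in females by 0.30 (p = 0.0280, adjusted p = 0.372). The sex difference of saline against WT was called for 0 of 8, beside 0.49% of all genes, and 5 had an unadjusted p under 0.05. The lowest was that of Ghr (-0.77 ± 0.25 SE, unadjusted p = 0.0039, adjusted p = 0.0887). The muscle list, which Ghr followed across mice, had a median sex difference of -2.01 in the same contrast and the fibroblast list one of -1.12, with 0 of 16 and 0 of 10 genes called, and their part was not tested. In males Ghr was 1.47 ± 0.560 scaled TPM in WT and 2.76 ± 0.690 in saline (SD, n = 6), a log2 difference of 0.75 (limma on males alone, adjusted p = 0.0020). In females it was 2.14 ± 0.508 and 2.08 ± 0.331, a difference of -0.02 (adjusted p = 0.944), and ABE females ranged from 2.11 to 5.07.

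Igfbp5 was also higher in females than in males among WT mice, on average. Its WT females, at 44.8 ± 8.45 scaled TPM (SD, n = 6), were above WT males, at 26.3 ± 9.09, whereas saline females (26.8 ± 7.60) and males (24.4 ± 7.75) lay together. The fall in saline against WT was -0.77 in females (limma on females alone, adjusted p = 0.0067) and -0.10 in males (adjusted p = 0.715), and the difference between the sexes was -0.67 ± 0.28 SE (adjusted p = 0.171). Igf1 had a mean of 0.789 ± 0.291 in saline females and 1.08 ± 0.153 in saline males, and Igf1r (0.24), Igf1 (-0.44) and Igfbp3 (-0.57) were the other members with an unadjusted p under 0.05. For ABE against saline the sex difference was called for 0 of 8 members, beside 0.0496% of all genes, and no member had an unadjusted p under 0.05, the lowest being that of Ghr (0.50, p = 0.0513).

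Of 76 further genes of the pathway in the table, 58 passed the filter. In saline against WT 21 rose, 10 fell and 27 did not pass. In ABE against WT 34 rose, 14 fell and 10 did not pass, and in ABE against saline 26 rose, 12 fell and 20 did not pass. The shares called were 53.4%, 82.8% and 65.5%, beside 52.7%, 70.5% and 48.4% of all genes. Their median log2 fold changes were 0.04, 0.23 and 0.12. With the muscle list as a covariate, 17 of them were called in ABE against WT and 3 in ABE against saline, while the calls among all 16123 genes fell to 2493 higher and 2828 lower and to 511 and 205.

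Among the other receptors, Igf2r, which clears IGF-2 into lysosomes, rose in each comparison. It was 3.51 ± 0.607 scaled TPM (SD, n = 12) in WT, 4.75 ± 0.653 in saline and 5.67 ± 0.611 in ABE, log2 differences of 0.39 and 0.63 against WT (adjusted p = 5.3e-05 and 1.3e-08) and of 0.24 between ABE and saline (adjusted p = 0.010). Insr, the insulin receptor gene, was 2.95 ± 0.230, 2.93 ± 0.201 and 3.55 ± 0.595 and rose in ABE against WT (0.22, adjusted p = 7.8e-04) and against saline (0.23, adjusted p = 0.0020). The ratio of Igf1r to Insr, in scaled TPM, had a median of 1.03 in WT, 0.947 in saline and 0.731 in ABE.

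Of the 7 tested genes for proteases of the binding proteins and their inhibitors, 5 rose and 1 fell in saline against WT, 5 rose in ABE against WT, and 2 rose and 1 fell in ABE against saline. These are 85.7%, 71.4% and 42.9% of the list, beside 52.7%, 70.5% and 48.4% of all genes. Htra1, a serine protease that cuts IGFBP5, was 3.92 ± 1.60 scaled TPM (SD, n = 12) in WT, 7.29 ± 1.46 in saline and 7.10 ± 1.62 in ABE. It rose by 0.88 ± 0.16 SE in saline (adjusted p = 1.8e-05) and 0.84 ± 0.16 in ABE (adjusted p = 1.6e-05) against WT. Stc2, which encodes an inhibitor of PAPP-A, had medians of 0.330, 0.877 and 0.946 scaled TPM in WT, saline and ABE and rose in both LMNA G/G groups (log2 0.73 and 0.82, adjusted p = 2.7e-07 and 1.8e-08). Pappa, the protease gene itself, was 1.24 ± 0.298, 1.72 ± 0.667 and 1.18 ± 0.431. It rose in saline against WT (0.32, adjusted p = 0.021) and fell in ABE against saline (-0.39, adjusted p = 0.0066), beside 0.31 and -0.47 for Igfbp4, whose product it cuts. Mmp2, a gelatinase gene, rose in ABE against WT (0.96, adjusted p = 1.3e-04) and against saline (0.55, adjusted p = 0.029). Adam9 (0.29 and 0.50) and Adam12 (0.40 and 0.34) rose in saline and in ABE against WT, and Htra3 fell in saline (-0.32, adjusted p = 0.031). Pappa2 and Stc1 were below the filter.

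Downstream of the growth hormone receptor, Socs3, which encodes an inhibitor of JAK signaling that cytokines also induce, was 1.66 to 3.22 scaled TPM in WT, 3.66 to 5.45 in saline and 1.94 to 4.54 in ABE. It rose by 0.98 ± 0.10 SE in saline against WT (adjusted p = 1.2e-09) and fell by 0.55 in ABE against saline (adjusted p = 3.2e-04), and it was still 0.43 above WT in ABE (adjusted p = 3.0e-04). Stat5b, the gene of a STAT5 factor, had 6.32 ± 0.546 scaled TPM in WT, 6.26 ± 1.20 in saline and 8.80 ± 2.86 in ABE (SD, n = 12) and rose in ABE against saline (0.43, adjusted p = 0.0022). Its neighbor Stat5a fell in all 3 comparisons (-0.26, -0.45 and -0.19). Of the STAT5 target genes, Cish rose in saline against WT (0.46, adjusted p = 0.025) and Socs2 in ABE against WT (0.32, adjusted p = 0.0011). Igf1, a further target, was not called in any comparison. Of the 9 tested genes of growth hormone receptor signaling, 2 rose (Socs3, Cish) and 2 fell in saline against WT. In ABE against WT 3 rose and 4 fell, and in ABE against saline 1 rose and 4 fell. The shares called were 44.4%, 77.8% and 55.6% of the list, beside 52.7%, 70.5% and 48.4% of all genes. Sirpa, a receptor gene of myeloid cells whose product is a JAK2 substrate, fell in ABE against saline (-0.52, adjusted p = 0.0012), and macrophage genes did so as well, 7 of 9 tested.

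Downstream of the IGF receptor, Irs1, the main adaptor gene, was 1.24 to 4.32 scaled TPM in WT (median 2.48), 2.56 to 5.48 in saline (median 3.96) and 3.94 to 6.70 in ABE (median 5.45). It rose in saline against WT by 0.49 (adjusted p = 0.0013), in ABE against saline by 0.38 (adjusted p = 0.012) and in ABE against WT by 0.87 ± 0.12 SE (adjusted p = 2.7e-07). Grb10, which encodes an adaptor that restrains the receptor, rose by 0.57 in saline (adjusted p = 3.2e-06) and 0.76 in ABE (adjusted p = 1.0e-08) against WT. Inpp5d, the gene of the blood cell phosphatase SHIP1, fell by 0.51 and 0.85 (adjusted p = 3.3e-04 and 1.1e-07). Of the 8 tested FOXO factors and targets, 2 rose and 2 fell in saline against WT, 5 rose and 3 fell in ABE against WT, and 4 rose and 1 fell in ABE against saline. The shares called were 50%, 100% and 62.5% of the list, beside 52.7%, 70.5% and 48.4% of all genes. The genes of this list that fell against WT were Sesn1 and Ccng2 in both groups (-0.17 and -0.32 in saline, -0.22 and -0.34 in ABE) and the factor gene Foxo3 in ABE (-0.39, adjusted p = 5.3e-04). Pdk4, a kinase gene that limits glucose oxidation, ranged from 0.594 to 11.9 scaled TPM in WT (median 2.16), from 1.86 to 24.6 in saline (median 11.2) and from 4.22 to 69.1 in ABE (median 18.1), log2 differences of 1.78 and 2.47 against WT (adjusted p = 1.4e-04 and 5.6e-07). Klf15 rose by 0.62 in saline and 1.29 in ABE against WT, and by 0.68 in ABE against saline (adjusted p = 0.011, 1.1e-06 and 0.0068). Foxo4 rose by 0.86 in ABE against WT and 0.54 against saline (adjusted p = 5.3e-06 and 0.0039). Skeletal muscle expresses Pdk4, Klf15 and Foxo4 strongly, and the muscle list rose in the same comparisons. Its part in the rises of these genes was not tested.

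**Figure D4:**
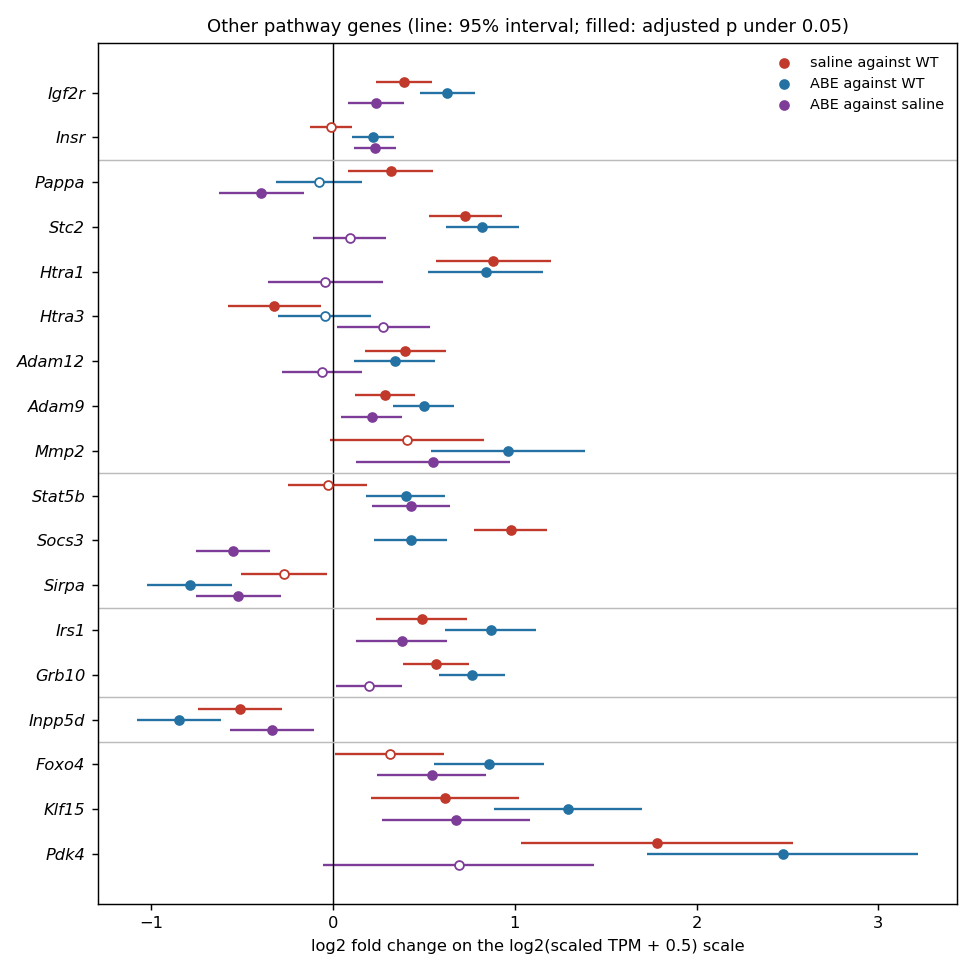
Log2 fold change on the log2(scaled TPM + 0.5) scale (horizontal axis) of pathway genes (the naming rule is given with the processing), with 95% intervals. Filled points have an adjusted p under 0.05, and gray lines separate the gene lists. Pdk4 lies farthest to the right (2.47 in ABE against WT), and Pappa and Socs3 lie above 0 in saline against WT and below 0 in ABE against saline.

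Variation between mice of a group, which enters the tests above only as error, was then compared across members. After removal of group and sex means, 21 of 36 pairs of members were correlated over the 36 mice with adjusted p under 0.05 for both Pearson's r and Spearman's rho (permutation test, two-sided, 100000 resamples, Benjamini-Hochberg over 36 pairs), 18 of them positively. Marker sums such as that of muscle varied widely between mice of a group, and their part in these correlations was not tested. Many genes correlated. With Igfbp7, |r| of at least 0.4 was reached by 12.6% of the 4047 other genes with at least 5 TPM on the positive side. On the negative side it was 15.4%, beside 7 and 1 of the 8 other members. With Igf1, 4 other members reached 0.4 and 1 reached -0.4, beside 4.94% and 3.88% of genes. For Ghr these shares were 22.7% and 26.2% of genes and for Igfbp6 19.8% and 25.3%, so a correlation of this size with either is common.

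Igf1 followed Igfbp4 (r = 0.70, rho = 0.75, adjusted permutation p = 1.2e-04 for both). Without the 2 mice farthest from the Igf1 median r was 0.75, and within WT, saline and ABE it was 0.79, 0.71 and 0.61. Igf1 and Igf1r went opposite ways (r = -0.70, rho = -0.69, adjusted permutation p = 1.2e-04 and 1.8e-04), with -0.65 without the 2 farthest mice and -0.87, -0.57 and -0.70 within the groups. This relation turned with the scaling. It was r = 0.41 on TPM as deposited, where a library's overall level moves all genes together, and -0.21 on rescaling over longer genes, and was not called in either, while Igf1 and Igfbp4 had 0.82 and 0.76 there. Igf1 and Ghr had r = 0.45 and rho = 0.45 (adjusted permutation p = 0.013 and 0.011), with 0.74 in WT, 0.67 in saline and -0.19 in ABE, so the relation did not hold within the ABE group. Ghr and Igfbp6 had r = 0.61 and rho = 0.59 (adjusted permutation p = 3.6e-04 and 9.0e-04) and 0.75, 0.48 and 0.70 within the groups, and this pair was not called with the muscle list or the blood cell lists as covariates. The neighbors Igfbp2 and Igfbp5 had r = 0.42 and rho = 0.50 (adjusted permutation p = 0.020 and 0.0055), with 0.05 in WT, 0.18 in saline and 0.55 in ABE, so the relation was weak within WT and saline, while Igfbp5 and Igfbp7 had r = 0.70 and rho = 0.74 (adjusted permutation p = 1.2e-04 for both), with 0.68, 0.37 and 0.74.

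**Figure D5:**
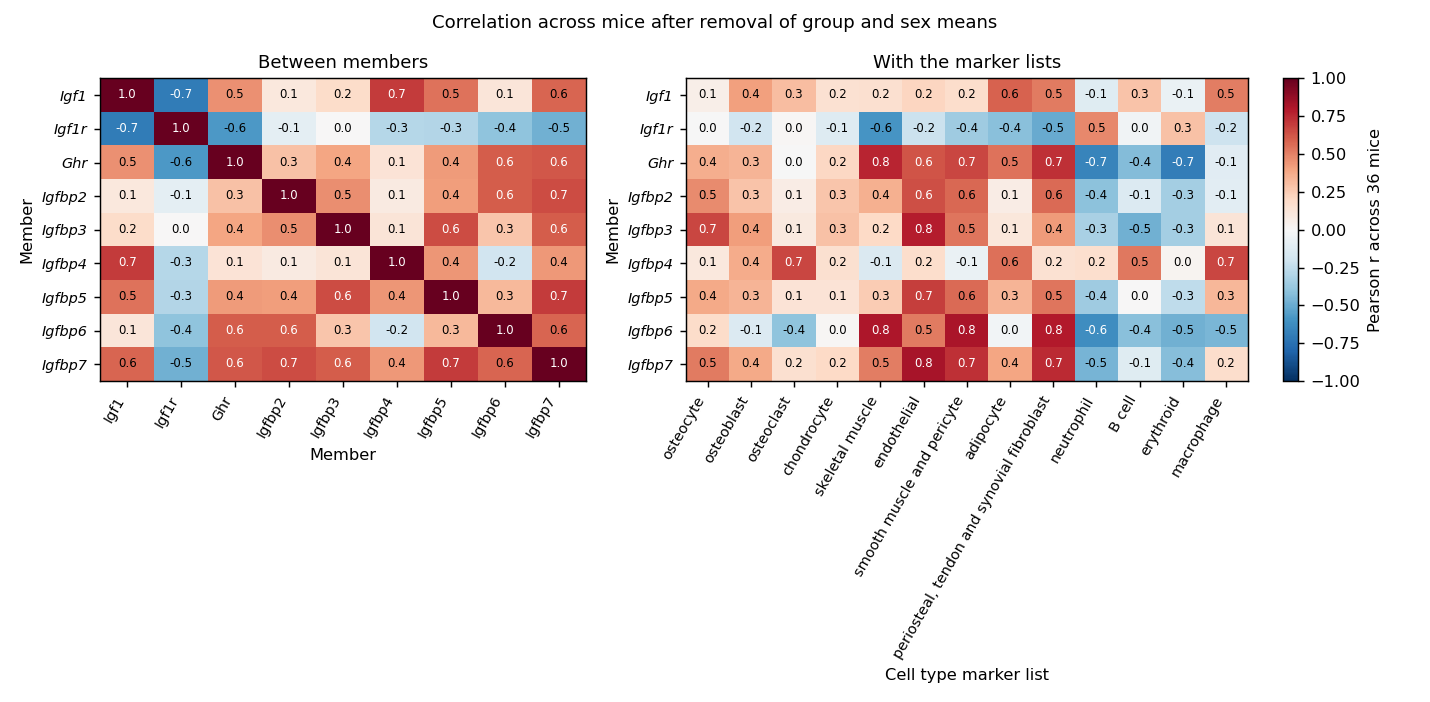
Pearson r across 36 mice after removal of group and sex means, between members (left) and between members and the mean log2 level of the marker lists (right), from -1 (blue) to 1 (red). Igfbp6 and Ghr follow the skeletal muscle list (0.81 and 0.76), Igfbp3 and Igfbp7 the endothelial list (0.79 and 0.82), and Igfbp4 the osteoclast and macrophage lists (0.67 each).

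The same residual values were set against the 13 marker lists (117 relations, permutation tests, Benjamini-Hochberg). Igfbp6 followed the smooth muscle and pericyte list (r = 0.82, rho = 0.82), the skeletal muscle list (0.81 and 0.78) and the list of periosteal, tendon and synovial fibroblasts (0.80 and 0.78), each with adjusted permutation p of 1.1e-04 and 1.2e-04. Ghr followed the skeletal muscle list (r = 0.76, rho = 0.72, adjusted permutation p = 1.1e-04 and 1.7e-04; 0.69 without the 2 farthest mice). It was nearly as close to the fibroblast list (0.73 and 0.69), the smooth muscle and pericyte list (0.67 and 0.64) and the endothelial list (0.63 and 0.57). With the erythroid (-0.69 and -0.64) and neutrophil lists (-0.66 and -0.57) its relation was negative. Igfbp3 (r = 0.79, rho = 0.80) and Igfbp7 (0.82 and 0.78) followed the endothelial list, with 0.77 and 0.77 without the 2 farthest mice. Igfbp7 also followed the fibroblast list (0.75 and 0.73) and the smooth muscle and pericyte list (0.73 and 0.70). Igfbp4 followed the osteoclast (r = 0.67, rho = 0.59) and macrophage lists (0.67 and 0.60), and Igf1 the adipocyte list (0.59 and 0.61, adjusted permutation p = 0.0011 and 6.2e-04). Igf1r was the member with the most negative relation to the muscle list (r = -0.59, rho = -0.45, adjusted permutation p = 0.0013 and 0.018).

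The genes most like each member, by r of these residuals among genes with at least 5 TPM, are given as a description with no test. Igf1 was most like Fstl1 (0.82), Selenop (0.77) and Pgrmc1 (0.77), and Igfbp4 most like Cebpa (0.89), Cxcl12 (0.88) and also Fstl1 (0.86). Igf1r was most like the nuclear envelope genes Syne1 (0.84) and Sun2 (0.75), with Dgat1 (0.76) between them. Ghr was most like Abcc9 (0.92), the pericyte marker Rgs5 (0.90) and Nedd4 (0.90). Igfbp3 was most like Eng (0.81), Cldn5 (0.80) and Epas1 (0.78), all abundant in endothelium, and Igfbp5 like Plpp3 (0.81), Tgfbr3 (0.81) and Pdgfrb (0.80). Igfbp6 was most like Cavin1 (0.89), Nbl1 (0.89) and Sparcl1 (0.89), Igfbp7 like Lamc1 (0.88), App (0.88) and Emp1 (0.88), and Igfbp2 like Sptan1 (0.70), Ptms (0.69) and Ski (0.69).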

How the data were processed

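Tibial RNA of 36 mice was sequenced as paired-end poly(A) libraries. The authors aligned reads to GRCm38 with STAR (version 2.73a in the submitters' processing notes) and counted them on GENCODE genes with QoRTs. The deposited values are TPM, and how the authors computed them is not given in the sources used here. The G and C content deposited with each gene is a fraction, used in 1 alternative only. TPM times gene length less 218 bp (at least 1) were whole multiples of a constant in each library (100% within 0.001), which gave the reads, with a median of 78234452.5 a library. Since 84.7% to 96.6% of a library's TPM fell on short genes (219 bp or less), libraries were rescaled by median ratios.

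Groups came from the labels. The main test was limma (two-sided, trend) on log2(scaled TPM + 0.5) with group and sex in 1 fit, in place of the study's own count model, since the deposited values are TPM. With known changes added, it was tested on simulated data. P-values set a difference or a correlation against the variation between mice. The members and lists were chosen with earlier results of these data known. All members were named. Pathway genes were named as the 6 largest called changes per comparison (mean of at least 1 scaled TPM), or where they belonged to the ligand, receptor, binding protein or protease lists, and other members of the lists (Stat5a, Cish, Socs2, Sesn1, Ccng2, Foxo3) were named after their values were seen. Alternatives were pseudocounts of 0.1 and 1, no filter or a filter at 5 TPM, other scalings, limma-voom, other covariates, either sex alone, array weights and each library left out. The markers of 13 cell types were fixed as lists. Fits used limma 3.58.1 in R 4.3.3, and permutations scipy 1.17.1 in Python 3.11.15. The human LMNA transgene was not analysed here.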

Additional observations from a re-analysis of the deposited data

How the results depend on the processing

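Among the 8 tested members, 5 were called in saline against WT. This became 2 with a filter at 5 TPM, which leaves only Igfbp4 to Igfbp7 to test, 3 on TPM as deposited, 2 in females only, 3 with the muscle list as a covariate and 2 with the blood cell lists. In ABE against WT 4 became 1 with the filter at 5 TPM, 2 with the muscle list and 1 with the blood cell lists. On TPM as deposited it stayed at 4 with other genes, since Ghr, Igfbp3 and Igfbp7 lost their calls and Igf1 (-0.39), Igfbp4 (-0.73) and Igfbp5 (-0.75) were called lower. In ABE against saline 2 became 0 with the muscle list and 1 with the blood cell lists. Of pathway genes, 31 were called in saline against WT, and this became 7 with the filter at 5 TPM, 14 on TPM as deposited and 12 in females only. In ABE against WT 48 became 17 with the filter at 5 TPM, 17 with the muscle list and 31 with the blood cell lists. In ABE against saline 38 became 13 with the filter at 5 TPM, 17 on TPM as deposited, 15 in males only, 25 in females only, 3 with the muscle list and 8 with the blood cell lists. Between females and males 0 members became 4 on TPM as deposited. Apart from the filter and the fits on fewer mice, the cause was not tested. Values of members that changed sign where either value was called were those of Ghr in saline against WT in females only (-0.024), Igfbp6 in ABE against WT with the muscle list (-1.13), and Igfbp7 in ABE against WT on TPM as deposited (-0.21) and with the muscle list (-0.037). With each library left out, the members called ranged from 4 to 7 in saline against WT, the 7 without WT male replicate 10, from 4 to 4 in ABE against WT and from 2 to 3 in ABE against saline. On TPM as deposited the median of all genes moved by -0.13, -0.42 and -0.27, with 1035 genes called higher and 3726 lower in saline against WT, 1468 and 9462 in ABE against WT and 540 and 6580 in ABE against saline, beside 4159 and 4338, 5597 and 5767, and 3995 and 3803 after scaling. On rescaling over longer genes the splits were 1868 and 6837, 3569 and 7899, and 3436 and 3389. With a filter at 5 TPM the split in ABE against saline was 721 and 1110, and with the muscle list 511 and 205. The number of correlated pairs of members stayed between 16 and 21 under 8 settings chosen after the data were seen. No paired analysis was possible because the labels give no replicate numbers that groups share. Igfbp2, with 29 to 480 reads a library, is the member whose depth limits it most.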
